A study of Mus musculus with 4 samples.

Results

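Transfer RNA charging and the response to amino acid shortage were followed through 48 genes, picked by symbol out of the 20207 genes measured in LSK cells of fetal liver, wild-type or Brpf1-null. They comprise 20 genes of cytosolic aminoacyl-tRNA synthetases, 15 of mitochondrial synthetases and 13 of the ATF4-type amino acid response, and all 48 were listed above 0 in both libraries. LSK cells lack markers of mature lineages, carry Sca-1 and Kit, and include blood stem cells and multipotent progenitors. They were sorted from livers of mouse embryos at E14.5 whose genotype was given as wildtype or Brpf1-null. Brpf1 encodes a chromatin reader that anchors MYST-family histone acetyltransferases. Each sample pooled about 10000 cells from 4 embryos, with allele, any Cre driver, strain and embryo sex not given in the sources used here. According to the labels there were 2 samples per genotype, but the tables of both pairs held the same values for every gene, so that each genotype counted as 1 library (n = 1). No difference below has a replicate check, and p-values were not computed.

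Values are RPKM, a read count scaled by transcript length and library size. Comparisons of level between genes are approximate, since libraries were oligo-dT-primed and the annotation behind the lengths is not given. Where a gene has a pair of values, the wild-type library comes first and the Brpf1-null library second. The libraries held about 23614000 (wild-type) and 22194000 (Brpf1-null) reads, estimated from the step between low values. Brackets after a fold hold its 95% exact (Clopper-Pearson) counting interval. It covers counting error only, not the spread between embryos, and treats reads as independent although PCR copies are not. The Brpf1 transcript had 2.59 RPKM in wild-type and 2.15 RPKM in Brpf1-null cells, 1.20-fold lower (1.00 to 1.43), and this gene-wide value cannot show whether an exon was lost. Of the genes of the gate, Kit was at 25.6 and 21.3 RPKM and Ly6a, which encodes Sca-1, at 10.6 and 9.51 RPKM. Of other progenitor surface genes, Cd34 was at 116.8 and 179.3 RPKM, Flt3 at 22.9 and 33.1 RPKM and Cd48 at 99.4 and 74.7 RPKM. Ptprc was at 14.4 and 17.2 RPKM, and Slamf1 at 0.566 and 0.0335 RPKM, from about 36 and 2 reads. Transcripts of cells outside the gate were also present and lower in the Brpf1-null library: the summed level was 2106 and 554 RPKM for 14 hepatocyte markers, 664 and 105 RPKM for 12 erythroid markers (Hba-a1 and Hba-a2 listed at 0 in both) and 278 and 84.0 RPKM for 9 B-lineage markers (Pax5 listed at 0 in both). Myeloid markers (11 genes, summed 797 and 1074 RPKM, led by Mpo) went both ways. With a pseudocount of 1 RPKM added to each value, 5 were at least 1.5-fold higher, such as Irf8 and Csf1r, and 3 lower (S100a8, S100a9 and Ngp). Over all 9380 genes averaging 1 RPKM or more, 14.1% were higher and 9.42% lower by that much. Of 7 endothelial markers (summed 34.1 and 28.8 RPKM), Tie1 was at least 1.5-fold higher and Emcn lower. The part of these cells in the differences below was not tested. In such bulk samples, fewer cells of a type and less RNA per cell cannot be told apart.

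Aminoacyl-tRNA synthetases attach each amino acid to its tRNA, with separate nuclear genes for most cytosolic and mitochondrial enzymes. When an amino acid runs short, uncharged tRNA activates the kinase GCN2, which phosphorylates the initiation factor eIF2 and slows translation. Translation of the transcription factor ATF4 rises under these conditions, so ATF4 activity is set largely by translation and not by its transcript level alone. ATF4 binds C/EBP-ATF composite elements in genes of amino acid synthesis, amino acid transport and tRNA charging, among them Asns and many cytosolic synthetases. Adult blood stem cells are known for low protein synthesis, which was not measured in these fetal LSK cells.

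The core of the C/EBP-ATF element, TGATGNAA, was searched on both strands in the 250 bases before the transcription start, since it is the sequence through which the named response is known to act. RefSeq promoters (GRCm38.p6) were found for 39 of the 48 genes, and those of Cars, Hars, Lars, Nars, Rars, Vars, Wars, Pars2 and Slc7a5 were not matched. Of the 39 genes, 5 (12.8%) held the letters. So did 1056 of 27025 genes with a promoter (3.91%) and 180 of the 7555 of them averaging 1 RPKM or more (2.38%). The members include genes picked as part of the ATF4-type response, so their share is not independent of that choice. The 5 genes with the letters were Asns, Chac1, Aars, Gars and Tars. They were found in 0 of 14 mitochondrial synthetases and 0 of the 6 serine and one-carbon enzymes with a promoter. Elements farther from the start, or with other letters, were not searched, so a gene without a match may still have one. The 5 matching stretches are shown 5′ to 3′ on the gene's strand, with up to 40 bases on each side. Those of Asns, Gars and Tars end at the base before the start, and capitals mark the match.
Asns (chr6:7693210-7693272, minus strand, match starting 23 bases before the start): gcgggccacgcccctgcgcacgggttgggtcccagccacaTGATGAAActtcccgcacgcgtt
Chac1 (chr2:119351009-119351096, plus strand, 193 bases before): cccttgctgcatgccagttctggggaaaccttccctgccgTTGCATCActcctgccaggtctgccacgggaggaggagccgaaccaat
Aars (chr8:111033690-111033777, plus strand, 112 bases before): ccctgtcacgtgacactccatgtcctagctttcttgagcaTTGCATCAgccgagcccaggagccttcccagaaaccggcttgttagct
Gars (chr6:55037931-55038000, plus strand, 30 bases before): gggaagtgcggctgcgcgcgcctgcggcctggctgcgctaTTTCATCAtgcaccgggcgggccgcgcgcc
Tars (chr15:11399659-11399713, minus strand, 15 bases before): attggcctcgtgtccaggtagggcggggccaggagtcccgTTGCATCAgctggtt
Asns carries the element in the forward direction and the other 4 in reverse, and Chac1, Aars and Tars share the same 8 letters. A match is a description of the letters and does not show binding.

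The 48 genes did not differ as 1 block between the libraries. Asns, Ddit3 and Trib3 were lower in the Brpf1-null library, the cytosolic synthetases Nars, Wars and Qars and the serine and one-carbon enzymes Phgdh, Shmt1 and Shmt2 were higher, and apart from the mitochondrial Aars2 and Cars2, also higher, the other synthetases lay within 1.5-fold on the log2 scale with a pseudocount of 1. Counts were limited to genes averaging 1 RPKM or more, which held for 46 of the 48 (not Trib3 and Chac1) and for 9380 genes in all. The log2 change, log2 of (Brpf1-null RPKM + 1) over (wild-type RPKM + 1), was past 1.5-fold upwards for 8 of the 46 (17.4%) and downwards for 2 (4.35%). Over all 9380 genes, 14.1% were past 1.5-fold upwards and 9.42% downwards, so the share of higher genes was near the background. The median log2 change of the 46 genes was 0.08, against 0.04 for all 9380. The counting interval left out 1 for 34 of the 46 (73.9%), among them all 10 past 1.5-fold, and for 72.3% of the 9258 genes of the background with an interval. Of the background genes past 1.5-fold, 59.9% were higher. With the medians of the libraries set equal this was 45.1%, a centring that lowered the median change of all genes by 0.11 on the log2 scale.

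**Figure D1:**
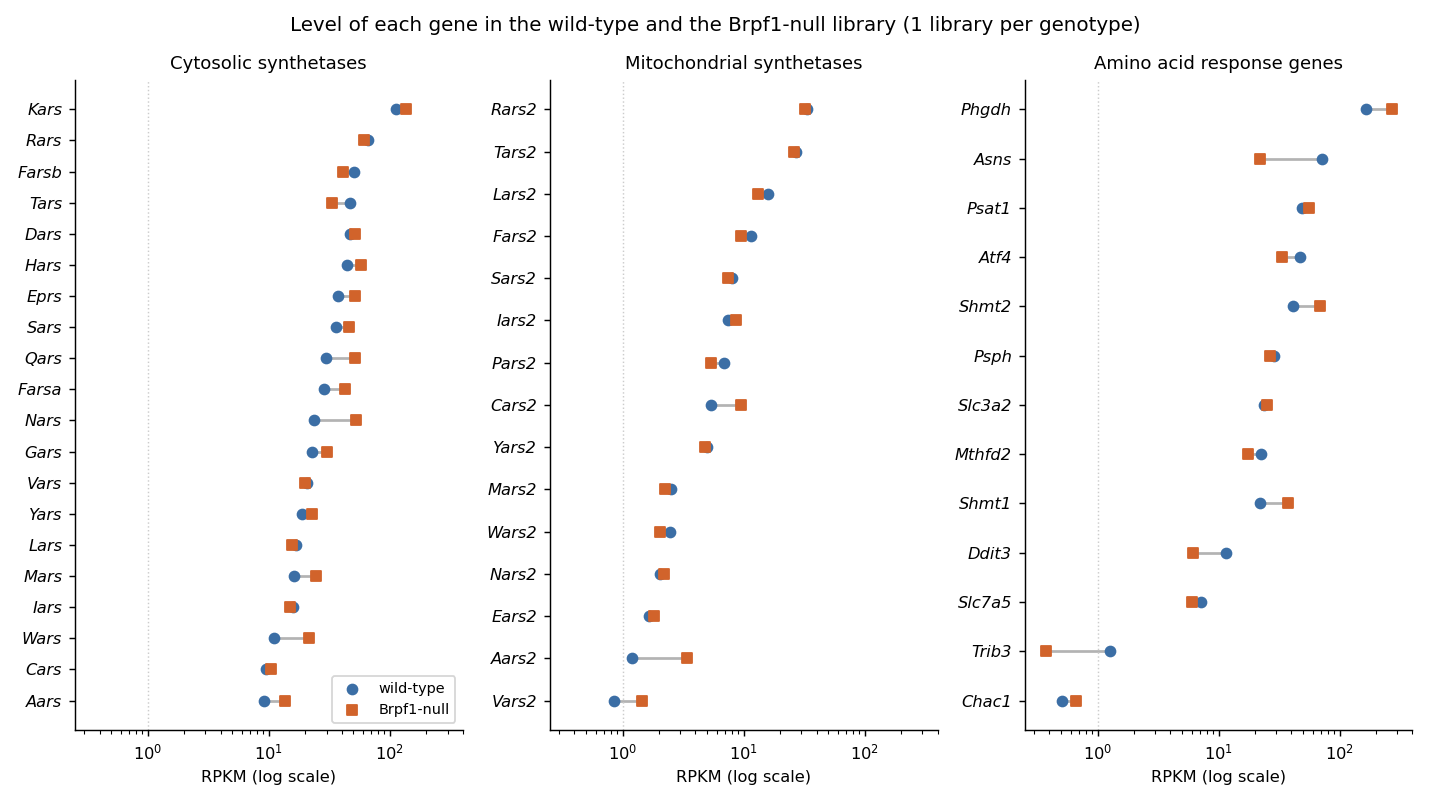
RPKM of each of the 48 genes on a log axis, in the wild-type library (blue circles) and the Brpf1-null library (orange squares), 1 library per genotype, with genes ordered by wild-type level and a dotted line at 1 RPKM. The widest gaps among genes above 1 RPKM in both libraries belong to Asns (71.6 and 22.2 RPKM), Aars2 (1.19 and 3.40 RPKM) and Nars (23.5 and 52.3 RPKM).

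Of the response genes, asparagine synthetase (Asns), which makes asparagine from aspartate and glutamine, showed the widest difference among those averaging 1 RPKM or more. Asns was at 71.6 RPKM in wild-type and 22.2 RPKM in Brpf1-null cells. This was 3.23-fold lower (3.01 to 3.47), from about 3384 and 984 reads, and 101 of the 9380 genes had a lower log2 change. The summed hepatocyte, erythroid and B-lineage markers were 3.80-fold, 6.33-fold and 3.31-fold lower in the same library, and the part of those cells in the Asns difference was not tested. Nars, whose product charges asparagine onto its tRNA, differed in the opposite direction, at 23.5 RPKM in wild-type and 52.3 RPKM in Brpf1-null cells, 2.23-fold higher (2.09 to 2.37). Of the 9380 genes, 258 had a higher log2 change than Nars. The Asns level was thus 3.05 times the Nars level in the wild-type library and 0.424 times in the Brpf1-null library, a ratio singled out after its values were seen.

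Of the transcription factors of the response, Atf4 was at 46.7 RPKM in wild-type and 33.2 RPKM in Brpf1-null cells, 1.405-fold lower (1.31 to 1.51). It lay within 1.5-fold, but past it with the library medians set equal (log2 change -0.60) and once the trend along transcript GC content was taken out (-0.62). Ddit3, which encodes the stress factor CHOP, was at 11.6 and 6.15 RPKM, 1.89-fold lower (1.52 to 2.38, from about 244 and 121 reads). With a pseudocount of 5 its log2 change was -0.57, no longer past 1.5-fold. The 68 exon bases that Ddit3 shares with Mars on the opposite strand make up 7.64% of its exons, with strand use in counting not given in the sources used here. Trib3, a pseudokinase that restrains ATF4 signalling, was at 1.28 RPKM in wild-type and 0.373 RPKM in Brpf1-null cells, 3.43-fold lower (1.94 to 6.16) on about 61 and 17 reads. Chac1, a glutathione-degrading enzyme and a sensitive ATF4 target, was at 0.513 and 0.660 RPKM. At about 20 and 24 reads its difference, 1.29-fold higher (0.676 to 2.44), was not detectable at this depth.

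Of 6 enzymes of serine synthesis and one-carbon metabolism, most of whose genes ATF4 is known to drive, 3 differed the other way from Asns. Shmt1 is not counted here among the known ATF4 targets. Phgdh, the first enzyme of serine synthesis, was the most abundant of the 48 genes, at 166.5 RPKM in wild-type and 268.8 RPKM in Brpf1-null cells, 1.61-fold higher (1.57 to 1.66). Its transcript is at least 95% identical over 200 or more bases to 9 other annotated genes, so its count is uncertain. Shmt1 and Shmt2, the cytosolic and mitochondrial enzymes that pass a carbon from serine to folate, were both higher. Shmt1 was at 22.2 and 37.3 RPKM, 1.68-fold higher (1.58 to 1.79), and Shmt2 at 41.5 and 68.9 RPKM, 1.66-fold higher (1.57 to 1.75). After removal of the GC trend the log2 changes of Phgdh (0.47) and Shmt2 (0.50) were no longer past 1.5-fold, while that of Shmt1 was 0.73. Centring likewise brought Phgdh to 0.56, within 1.5-fold.

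The other 3 enzymes of the same route lay within 1.5-fold. Psat1, the transaminase after Phgdh, was at 49.1 and 55.9 RPKM, 1.14-fold higher (1.08 to 1.20). Psph, which completes serine synthesis, was at 28.8 and 26.4 RPKM, 1.09-fold lower, and 26.1% of its exon bases lie opposite Cct6a, a chaperonin gene at 140.5 and 114.4 RPKM. Mthfd2, the mitochondrial folate dehydrogenase that takes over from Shmt2, had 22.6 and 17.7 RPKM, 1.28-fold lower (1.17 to 1.40). The level of Shmt2 was therefore 1.84 times that of Mthfd2 in the wild-type library and 3.90 times in the Brpf1-null library. In the same order, the level of Phgdh was 3.39 and 4.81 times that of Psat1, and 5.79 and 10.2 times that of Psph. Over the 6 enzymes, 3 were at least 1.5-fold higher and 0 lower, beside 14.1% and 9.42% of all genes, and 1 (Shmt1) was higher by that much with the GC trend removed. The median log2 change was 0.44, and their summed level was 331 RPKM in wild-type and 475 RPKM in Brpf1-null cells.

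The heterodimeric transporter that brings in large neutral amino acids such as leucine is built from the products of Slc7a5 (the LAT1 light chain) and Slc3a2 (the CD98 heavy chain). Slc7a5 was at 7.17 and 5.98 RPKM, 1.20-fold lower (1.06 to 1.36), and Slc3a2 at 23.8 and 24.9 RPKM. The level of Slc3a2 was 3.32 and 4.17 times that of Slc7a5. The Slc3a2 difference of 1.048-fold higher (0.969 to 1.13) lay within counting error, and its sign turned after centring and after removal of the GC trend. Of the 11 response genes averaging 1 RPKM or more, 3 were at least 1.5-fold higher (27.3%), 2 lower (18.2%) and 6 within 1.5-fold. Over all 9380 genes the shares were 14.1% higher and 9.42% lower. The median log2 change of the 11 was -0.12, and it ran from -0.25 to -0.10 over the alternatives tried.

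**Figure D2:**
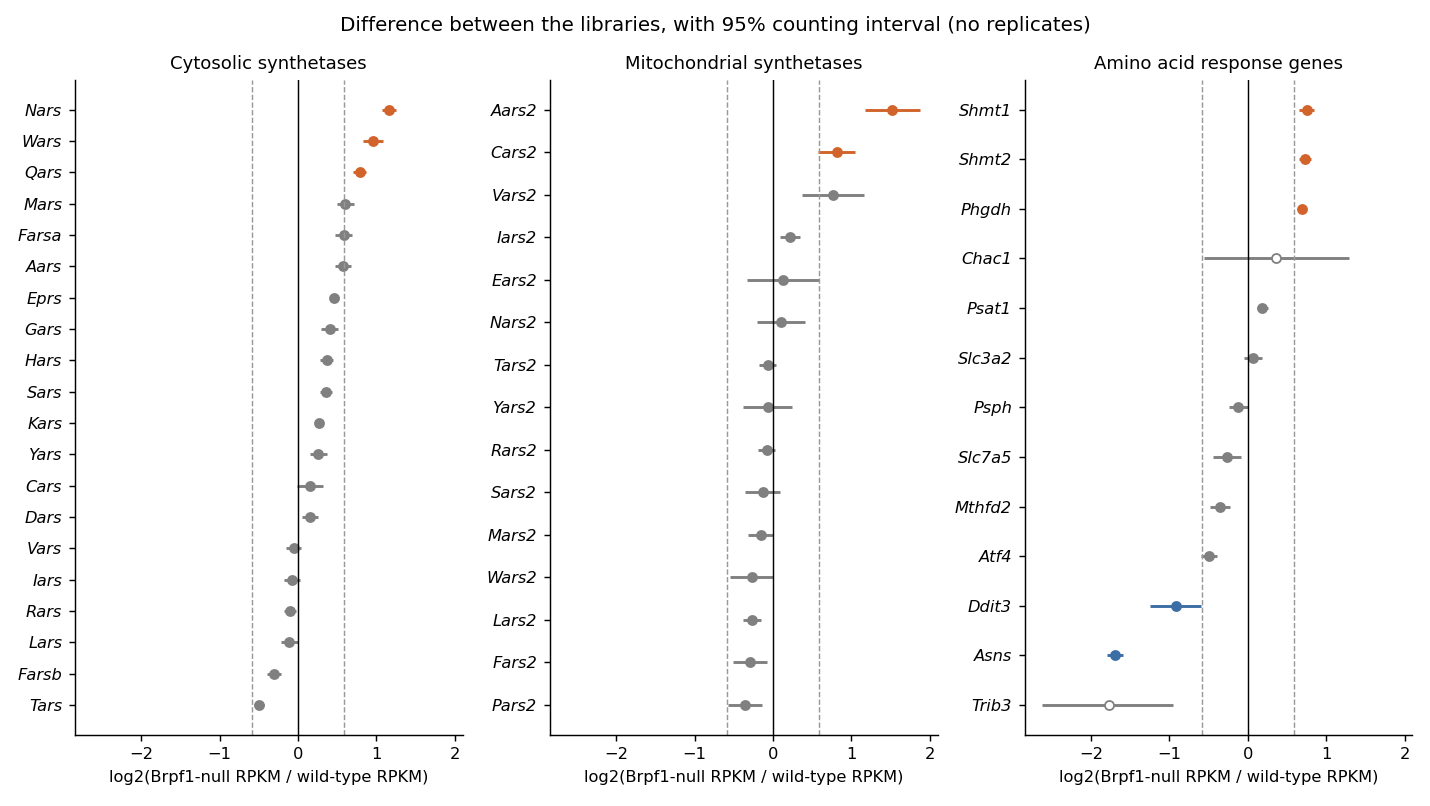
Log2 ratio of Brpf1-null to wild-type RPKM without a pseudocount, with the 95% counting interval as a bar, for each of the 48 genes. Dashed lines mark 1.5-fold, orange and blue points are past it with a pseudocount of 1, grey points are not, and open circles are the 2 genes under a mean of 1 RPKM. Of the coloured points, Asns and Ddit3 stand to the left and Nars, Wars, Qars, Aars2, Cars2, Phgdh, Shmt1 and Shmt2 to the right. Trib3 (open circle) also lies past the dashed line to the left, and Vars2 and Mars (grey) lie past it to the right.

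Of 20 cytosolic synthetases, 14 (70%) had a log2 change above 0 and 6 below 0, beside 54.1% of all 9380 genes above 0. Of the 20, 3 were at least 1.5-fold higher (15%, against 14.1% of all 9380 genes) and 0 were at least 1.5-fold lower. Their median log2 change was 0.30, between 0.18 and 0.32 over the alternatives, and their summed level was 664 RPKM in wild-type and 797 RPKM in Brpf1-null cells, a ratio of 1.20. Tars, the threonine enzyme, passed 1.5-fold downwards after centring alone.

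Beside Nars, the tryptophan enzyme gene Wars was at 11.1 RPKM in wild-type and 21.5 RPKM in Brpf1-null cells, 1.94-fold higher (1.77 to 2.12). Wars is also known as an interferon-induced gene. Qars, the glutamine enzyme, was at 29.8 and 51.4 RPKM, 1.72-fold higher (1.63 to 1.82). The 3 genes kept their side of 1.5-fold under each of the 7 alternatives that changed the scaling, the pseudocount or the filter. Just below the threshold, on the log2 scale with a pseudocount of 1, stood Mars (methionine, 0.57), Farsa (the catalytic chain of the phenylalanine enzyme, 0.56) and Aars (alanine, 0.53). Mars was at 16.1 and 24.5 RPKM, 1.52-fold higher (1.405 to 1.64) as a plain ratio, Farsa at 28.4 and 42.4 RPKM and Aars at 9.07 and 13.5 RPKM. Aars shares 23.1% of its exon bases with Exosc6 on the same strand, which was at 3.05 and 4.03 RPKM. With a pseudocount of 0.1, Mars also passed 1.5-fold.

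A second tier was higher by a smaller step. Eprs, a fused enzyme for glutamate and proline, was at 37.2 and 51.1 RPKM, Gars (glycine) at 22.9 and 30.2 RPKM, and Hars (histidine) at 44.6 and 57.5 RPKM. Sars (serine) was at 35.8 and 45.7 RPKM, Kars (lysine) at 113.1 and 135.7 RPKM, and Yars (tyrosine) at 18.9 and 22.6 RPKM. The counting intervals of these 6 folds, from 1.20 for Yars and Kars to 1.37 for Eprs, left out 1. Kars was the most abundant synthetase in both libraries, and Kars and Gars each encode the cytosolic and the mitochondrial form of their enzyme. Dars (aspartate) was at 46.6 and 51.7 RPKM, 1.11-fold higher (1.03 to 1.19), and Cars (cysteine) at 9.41 and 10.5 RPKM, 1.11-fold higher with an interval that held 1 (0.995 to 1.24).

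The remaining 6 of the 20 had lower values in the Brpf1-null library. Tars was at 47.2 and 33.4 RPKM, 1.41-fold lower (1.35 to 1.48), and Farsb, the second chain of the phenylalanine enzyme, at 50.8 and 41.2 RPKM, 1.23-fold lower (1.16 to 1.31). Rars (arginine) was at 66.2 and 61.6 RPKM and Lars (leucine) at 16.7 and 15.5 RPKM, 1.07-fold and 1.08-fold lower. Of the exon bases of Farsb, 11.3% lie opposite Sgpp2, a gene at 0.222 and 0.0225 RPKM. For Iars (isoleucine), at 15.8 and 14.9 RPKM, and Vars (valine), at 20.7 and 19.9 RPKM, the counting interval held 1, and Iars has 1 near-identical copy in the annotation (Gm4849). Farsa and Farsb, whose products form 1 enzyme, thus differed in opposite directions, and the level of Farsa went from 0.559 to 1.03 times that of Farsb.

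Splits of the cytosolic synthetases by known biology were described in the same way. The 13 known as ATF4 targets (Aars, Cars, Eprs, Gars, Iars, Lars, Mars, Nars, Sars, Tars, Vars, Wars and Yars) had a median log2 change of 0.35, and the other 7 had 0.26, an order that turned with the GC trend removed (0.23 and 0.27). Of the 13, 2 were at least 1.5-fold higher and 0 lower. Of the 7, 1 was higher and 0 lower. Among all genes, 14.1% were higher and 9.42% lower by that much. Of the 13, 9 had a log2 change above 0 and 4 below 0, beside 54.1% and 45.9% of all 9380 genes. Members with the C/EBP-ATF letters in the stretches shown above went both ways: Asns and Tars had lower values in the Brpf1-null library, Aars and Gars higher ones, and Chac1 was not resolved. The 8 synthetases of the multisynthetase complex, a cytosolic assembly that holds them together, had a median of 0.20, and the 12 outside it 0.35, or 0.23 and 0.27 with the GC trend removed. The 3 scaffold genes of the complex had no higher value: Aimp1 was at 73.3 and 71.6 RPKM, Aimp2 at 97.5 and 95.7 RPKM, and Eef1e1, which encodes AIMP3, at 71.2 and 45.1 RPKM, 1.58-fold lower (1.503 to 1.66). With the GC trend removed Eef1e1 lay within 1.5-fold (-0.52 on the log2 scale).

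Mitochondrial synthetases had a median change near 0. Of 15, 6 had a log2 change above 0 (40%) and 9 below 0, beside 54.1% and 45.9% of all 9380 genes. At least 1.5-fold higher were 2 (13.3%, beside the 14.1% of all genes), 0 were lower by that much, and 13 lay within 1.5-fold. The median log2 change was -0.06, and -0.19 after centring. Their summed level was 131 RPKM in wild-type and 129 RPKM in Brpf1-null cells, so that the cytosolic sum was 5.05 times the mitochondrial sum in the former and 6.18 times in the latter. The counting interval held 1 for 8 of the 15 genes, which were on the whole lower in level, with a median of 5.37 RPKM against 25.9 RPKM for the cytosolic genes in the wild-type library.

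Aars2, the mitochondrial alanine enzyme gene, was at 1.19 RPKM in wild-type and 3.40 RPKM in Brpf1-null cells, 2.86-fold higher (2.25 to 3.67, from about 94 and 253 reads). Cars2, for cysteine, was at 5.37 and 9.44 RPKM, 1.76-fold higher (1.49 to 2.07). With a pseudocount of 5 neither was past 1.5-fold (0.44 and 0.48 on the log2 scale), and removal of the GC trend brought Cars2 to 0.51. Vars2 (valine) had 0.8504 and 1.44 RPKM, 1.70-fold higher (1.29 to 2.24) without a pseudocount, and passed 1.5-fold on the log2 scale only with a pseudocount of 0.1. Iars2 (isoleucine) was at 7.43 and 8.67 RPKM, but 30.5% of its exon bases lie opposite Rab3gap2.

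Among genes with lower values, Pars2 (proline) was at 6.85 and 5.35 RPKM, 1.28-fold lower (1.10 to 1.48), Fars2 (phenylalanine) at 11.6 and 9.42 RPKM, and Lars2 (leucine) at 15.8 and 13.1 RPKM. These 3 had counting intervals without 1. Rars2 and Tars2, for arginine and threonine, were the most abundant of the mitochondrial set, at 33.6 and 31.9 RPKM and at 27.1 and 25.9 RPKM. Their differences lay within counting error, as did those of Sars2 (serine, 8.08 and 7.37 RPKM), Yars2 (tyrosine, 4.99 and 4.76 RPKM) and Mars2 (methionine, 2.51 and 2.25 RPKM). Wars2 (tryptophan) was at 2.45 and 2.03 RPKM, Nars2 (asparagine) at 2.05 and 2.21 RPKM and Ears2 (glutamate) at 1.65 and 1.80 RPKM, likewise with intervals that held 1. The signs of Mars2, Rars2 and Ears2 turned after removal of the GC trend and that of Nars2 after centring. Glutaminyl-tRNA is made in mitochondria from the product of Ears2 by an amidotransferase, and 2 of its genes, Qrsl1 (7.64 and 5.89 RPKM) and Gatc (13.2 and 9.19 RPKM), had lower values in the Brpf1-null library, 1.30-fold (1.10 to 1.53) and 1.43-fold (1.25 to 1.64).

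For 12 amino acids a cytosolic and a mitochondrial gene among the members could be paired by symbol, such as Aars and Aars2. Phenylalanine, glutamate and proline were left out, since the symbols of Farsa, Farsb and Eprs do not pair with Fars2, Ears2 and Pars2. In the 12 pairs, the cytosolic gene had the higher level in all 12 in each library. The ratio of their levels ran from 1.06 (Lars over Lars2) to 24.4 (Vars over Vars2) in the wild-type library, with a median of 4.11, and from 1.11 (Cars over Cars2) to 23.7 (Nars over Nars2) in the Brpf1-null library, with a median of 4.36. It was larger in the Brpf1-null library for 6 amino acids and smaller for the other 6. The asparagine ratio went from 11.5 to 23.7 and the tryptophan ratio from 4.54 to 10.6, mainly through the cytosolic gene. The alanine ratio went from 7.64 to 3.97, where both genes were higher and Aars2 by more.

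**Figure D3:**
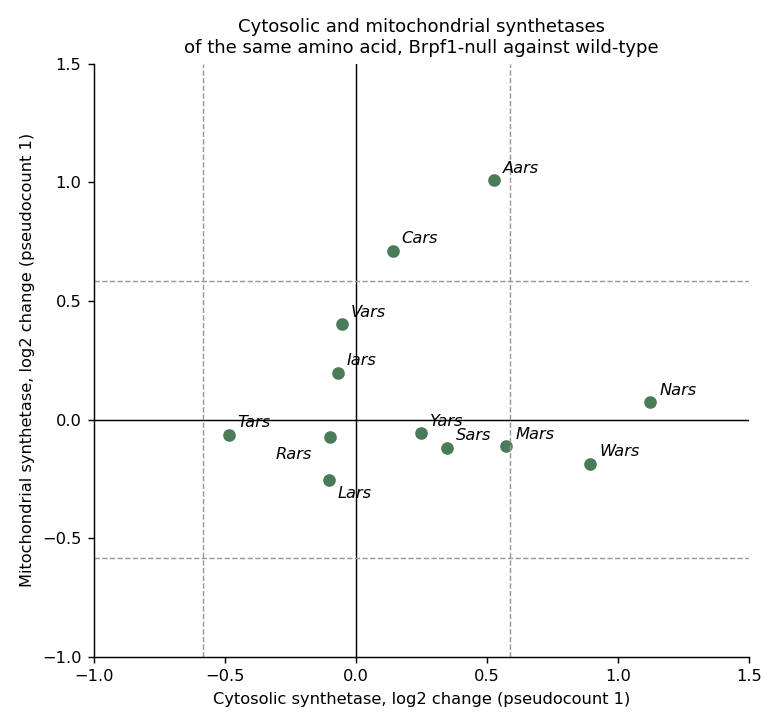
Log2 change (pseudocount of 1) of the cytosolic synthetase (horizontal axis) and the mitochondrial synthetase (vertical axis) for the 12 amino acids paired by symbol. Each is labelled by the cytosolic gene, with dashed lines at 1.5-fold. Nars and Wars lie to the right with their mitochondrial partners near 0, Aars and Cars lie high through Aars2 and Cars2, and 0 of the 12 points is past 1.5-fold on both axes.

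Other genes of tRNA charging were also mixed. Of 15 measured, 1 was at least 1.5-fold higher, 2 lower and 12 within, beside 14.1% higher and 9.42% lower of all genes. The median log2 change of the 15 was -0.11. Yrdc, which makes a modified base needed for accurate decoding, was at 2.21 and 6.55 RPKM, 2.97-fold higher (2.31 to 3.85). Sepsecs, which makes selenocysteinyl-tRNA, was at 1.91 and 0.514 RPKM, 3.72-fold lower (2.76 to 4.97). Trnt1, which adds the CCA end that synthetases charge, was at 32.5 and 18.1 RPKM, 1.80-fold lower (1.65 to 1.96). Elac2, the enzyme that trims tRNA 3′ ends, was at 4.57 and 6.93 RPKM, within 1.5-fold on the log2 scale.

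Upstream of ATF4, 1 of 10 genes of eIF2 and its kinases and phosphatases was at least 1.5-fold higher and 1 lower. Over all genes the shares were 14.1% higher and 9.42% lower. The median log2 change of the 10 was -0.02. Eif2ak4, which encodes GCN2, was at 3.14 and 3.88 RPKM, 1.23-fold higher (1.07 to 1.42). Eif2ak2, the double-stranded RNA kinase PKR and a known interferon target, was at 1.41 and 3.97 RPKM, 2.82-fold higher (2.33 to 3.45). Impact, an inhibitor of GCN2 activation, was at 7.38 and 4.36 RPKM, 1.69-fold lower (1.48 to 1.93), but within 1.5-fold with the GC trend removed (-0.47). Eif2s3x, an X-linked gene for a subunit of eIF2, was at 23.5 and 34.8 RPKM, and Eif2ak3, which encodes PERK, at 1.18 and 1.79 RPKM, both within 1.5-fold on the log2 scale. With the GC trend removed Eif2s3x passed it (0.68).

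Of 21 other targets and partners of ATF4, 9 reached a mean of 1 RPKM and 12 did not, Fgf21 being listed at 0 in both libraries. Among the 9, 2 were at least 1.5-fold higher, 1 lower and 6 within, beside 14.1% higher and 9.42% lower of all genes. The median log2 change of the 9 was 0.24. Over all 21 without the filter, 9 lay above 0 and 11 below, and the median was -0.10. Of the 12 left out, Gdf15 (about 18 and 0 reads), Vldlr (31 and 1), Sesn2 (31 and 10), Aldh1l2 (14 and 0) and Gpt2 (70 and 37) were lower and Atf3 (7 and 21) higher with counting intervals without 1. These 6 were named after their values were seen. Cth, which makes cysteine from cystathionine, was at 2.02 and 0.4497 RPKM, 4.49-fold lower (2.71 to 8.02). Cebpb, a partner of ATF4, was at 0.871 and 2.36 RPKM, 2.71-fold higher (1.77 to 4.25), and the stress gene Nupr1 at 4.32 and 7.40 RPKM, 1.71-fold higher (1.29 to 2.26). Herpud1, a gene of the endoplasmic reticulum stress response, was at 63.5 and 44.4 RPKM, within 1.5-fold. With the GC trend removed Nupr1 came within 1.5-fold (0.48) and Herpud1 passed it downwards (-0.62).

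Amino acid carriers beyond the LAT1 pair were mostly within 1.5-fold, 10 of the 12 averaging 1 RPKM or more. Of these 12, 1 was higher and 1 lower by that much, beside 14.1% and 9.42% of all genes. The median log2 change of the 12 was -0.21. Slc43a2, a neutral amino acid carrier (LAT4), was at 0.788 and 3.46 RPKM, 4.39-fold higher (3.61 to 5.34). Slc6a9, a glycine transporter that developing red cells need to make heme, had levels of 3.06 and 0.921 RPKM, 3.32-fold lower (2.55 to 4.405), beside erythroid markers that were all 10 of 10 at least 1.5-fold lower. Its relation to the erythroid markers was not tested. Slc7a8 (0.754 and 1.54 RPKM) and Slc38a9, a lysosomal arginine sensor (3.11 and 2.01 RPKM), lay within 1.5-fold on the log2 scale. Of 7 other one-carbon and glycine enzymes, 3 were at least 1.5-fold higher and 0 lower, beside 14.1% and 9.42% of all genes, with a median of 0.21. With the GC trend removed the median was 0.0035 and 1 of the 3 (Mtr) remained past 1.5-fold, and over all 10 genes of the list without the filter the median was -0.17. The 3 genes were Mthfd1, the cytosolic folate enzyme, at 20.4 and 32.03 RPKM (1.57-fold, 1.47 to 1.68), Gcat at 11.9 and 18.9 RPKM (1.59-fold, 1.43 to 1.77) and Mtr, methionine synthase, at 2.14 and 3.78 RPKM (1.77-fold, 1.56 to 2.00). Dld, a shared subunit of the glycine cleavage system, was at 43.0 and 35.4 RPKM.

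**Figure D4:**
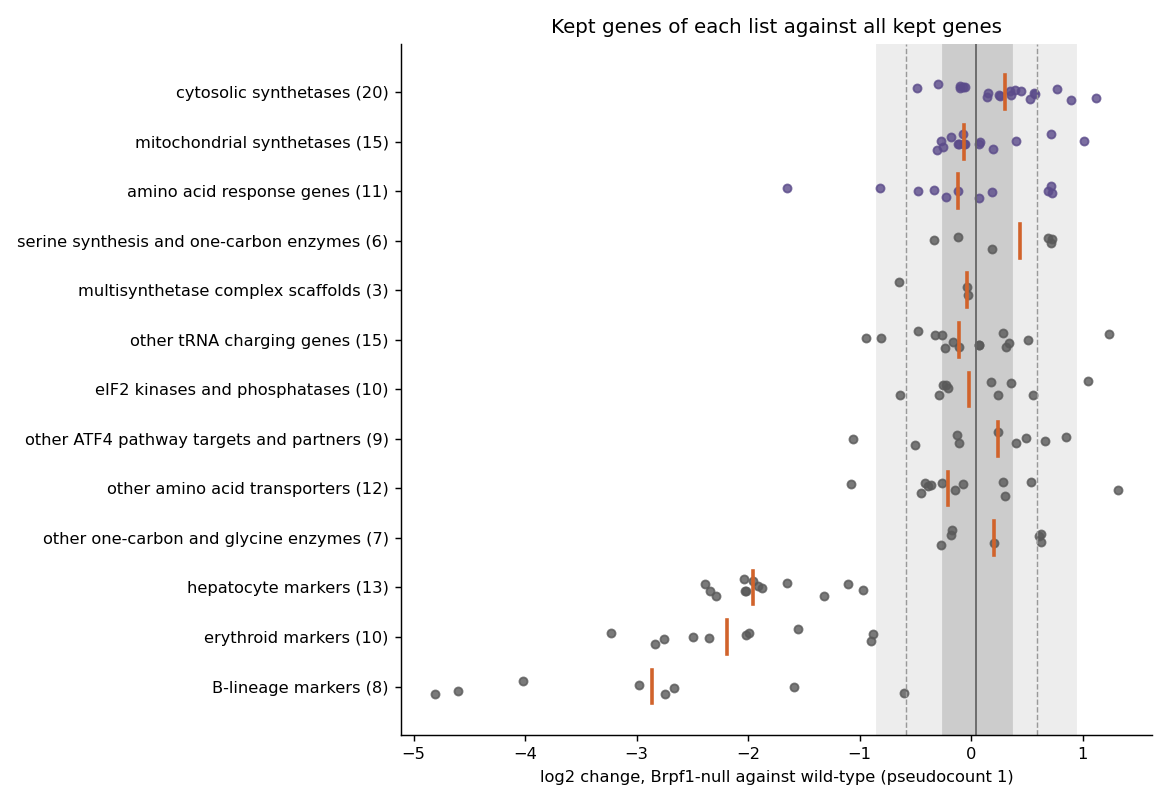
Log2 change (pseudocount of 1) of every gene averaging 1 RPKM or more in each list, with the number of such genes in brackets and an orange bar at the list's median. The dark and light grey bands hold the central 50% and 90% of all 9380 genes around their median of 0.04. Medians of the synthetase, response and related lists lie between -0.21 and 0.44, and those of the hepatocyte, erythroid and B-lineage markers at -1.96, -2.19 and -2.86.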

How the data were processed

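RNA of sorted LSK cells was sequenced from oligo-dT-primed libraries, on 2 lanes for pair 1 and 6 for pair 2, per the labels' protocols. Reads were aligned with TopHat to mm9, per the submitters' processing notes. Not given in the sources used here: annotation, counting program, strand setting. RPKM values were deposited by the authors for pair 1, and FPKM for pair 2, per the file headers, and 0 of 20207 genes differed between the tables. A genotype therefore has 1 library here, and its unit is called RPKM. The deposited fold (ratio) column divides wild-type by Brpf1-null in all 12624 genes that have it. That column and the deposited log2 column were not used. A limma fit, planned for the case that the tables differed, was not run. Changes are log2 of (RPKM + 1), for genes averaging 1 RPKM or more (10827 were left out).

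Library sizes were taken where RPKM times GENCODE M21 transcript length gave whole reads: 64.4% and 65.9% of low values were then whole within 0.1 read, against 23.4% and 25.6% with sizes raised by 5%. Symbols were matched directly for 17518 genes and by RefSeq synonym for 2303 (98.1%). Read numbers per gene are therefore approximate. The GC trend was a lowess fit over 9258 genes: median log2 changes were -0.17 at the low-GC end and 0.24 at the high-GC end (deciles). Overlaps and near-identical copies (blastn 2.17.0) were taken from M21, an annotation of GRCm38 and not mm9. The steps were tested on simulated data.

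The members and lists were chosen with earlier results of these data known. All members are given. Of each other pathway list, up to 4 genes with the largest absolute log2 change are named, with Eif2ak4 and Brpf1, and marker lists are given as sums. Qrsl1, Gatc, the marker genes named singly and overlap partners were named after their values were seen. Level ratios between genes were not among the planned results.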

Additional observations from a re-analysis of the deposited data

How the results depend on the processing

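With 1 library per genotype the spread between samples is unknown, and depth limits the genes under about 100 reads (Chac1, Trib3, Vars2, Ears2, Aars2). No paired analysis was possible because the tables of both pairs hold the same values; no library could be left out for the same reason. The 7 alternatives were pseudocounts of 0.1 and 5, no filter, a mean of at least 5 RPKM, centring, quantile normalization and removal of the GC trend. In addition, counts were repeated for genes whose counting interval left out 1, which moved no count by over 1.5 times. With a pseudocount of 5, 947 of all genes were past 1.5-fold in place of 2207, 0 mitochondrial synthetases were higher in place of 2, and 1 response gene was lower in place of 2. With a mean of at least 5 RPKM, 1276 genes were past 1.5-fold and 1 mitochondrial synthetase was higher. After centring, 1 cytosolic synthetase (Tars) was lower and the mitochondrial median was -0.19. After removal of the GC trend, 1 mitochondrial synthetase and 1 response gene were higher. None of the 10 members past 1.5-fold changed sign under the 7 alternatives. Of these 10, 5 came within 1.5-fold under at least 1 of them (Aars2, Cars2, Ddit3, Phgdh, Shmt2), and 5 of the 46 members, all within 1.5-fold, changed sign (Ears2, Mars2, Nars2, Rars2, Slc3a2). For the related lists, removal of the GC trend and no filter were added after seeing the data: without the filter the medians of other ATF4 targets (-0.10) and of other one-carbon enzymes (-0.17) changed sign. The cause of these shifts was not tested.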
